A study of Mus musculus with 9 samples.

Results

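The genes described here are 7 dual-specificity phosphatases of the mouse heart, Dusp1, Dusp4, Dusp5, Dusp6, Dusp8, Dusp10 and Dusp16, together with the 3 genes of the c-Jun N-terminal kinases (JNK), Mapk8, Mapk9 and Mapk10. They were taken by symbol, as 10 of the 54532 genes of the count table, and all 10 passed the filter on low counts. The study used RNA-seq of heart tissue to ask which genes respond to myocardial ischemia/reperfusion injury (MIRI) and which of them respond to Guanxinning injection (GXNI), a herbal preparation used clinically for cardiac injury. All mice were wild-type (WT) C57BL/6J males of 8 to 10 weeks, with 3 mice in each of the groups sham, MIRI and GXNI. In sham mice the chest was opened and a suture was passed under the left anterior descending coronary artery without tying it. In MIRI and GXNI mice the artery was tied for 30 min and then released for 24 h. Within 10 min of ischemia, GXNI mice received 9 mL/kg of the injection through the tail vein, and MIRI mice received saline. All 3 groups thus share the anesthesia, the open chest and an injection, and 1 heart gave 1 library.

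Mitogen-activated protein (MAP) kinases, among them ERK, p38 and JNK, are switched on by phosphorylation of a threonine and a tyrosine in their activation loop. Dual-specificity phosphatases remove both phosphates and so switch the kinases off, and several of their genes are themselves induced by the kinases they restrain, which makes them feedback genes. In the heart these kinases are known for their activation by stretch, oxidants and reperfusion, and the transcript levels measured here say nothing of the phosphorylation of any kinase.

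The stretches of promoter shown first belong to the 4 genes whose window of 250 bases before the start of transcription held a letter match to 1 of 3 searched motifs. RefSeq (build GRCm38.p6) had such a window for 9 of the 10 genes, in 11 entries, and Dusp4 had none. The motifs, searched on both strands, were the cAMP response element TGACGTCA, the AP-1 site TGANTCA and the CArG box, the site of serum response factor. The first is a palindrome and does not overlap the second in these letters. Bases that the GENCODE annotation places in an exon of the same gene are left out, and capitals mark the matches. The stretches read 5′ to 3′ on the strand of the gene, which is the reverse strand for Dusp1 (chr17:26508520-26508722), Dusp8 (chr7:142095285-142095534) and Mapk10 (chr5:103211335-103211584) and the forward strand for Dusp5 (chr19:53528895-53529108).
Dusp1: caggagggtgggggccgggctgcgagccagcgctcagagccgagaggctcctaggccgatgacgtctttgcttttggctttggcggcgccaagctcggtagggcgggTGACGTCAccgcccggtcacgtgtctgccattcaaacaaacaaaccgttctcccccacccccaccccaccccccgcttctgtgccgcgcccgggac
Dusp5: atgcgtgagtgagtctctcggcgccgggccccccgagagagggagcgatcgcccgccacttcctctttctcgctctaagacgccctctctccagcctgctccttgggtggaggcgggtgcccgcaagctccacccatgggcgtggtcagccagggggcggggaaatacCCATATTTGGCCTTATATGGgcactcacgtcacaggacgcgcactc
Dusp8: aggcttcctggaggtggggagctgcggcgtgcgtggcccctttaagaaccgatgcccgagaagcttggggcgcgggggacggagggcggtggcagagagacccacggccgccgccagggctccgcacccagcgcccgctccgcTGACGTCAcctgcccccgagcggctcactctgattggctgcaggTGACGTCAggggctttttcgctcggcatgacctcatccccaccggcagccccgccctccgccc
Mapk10: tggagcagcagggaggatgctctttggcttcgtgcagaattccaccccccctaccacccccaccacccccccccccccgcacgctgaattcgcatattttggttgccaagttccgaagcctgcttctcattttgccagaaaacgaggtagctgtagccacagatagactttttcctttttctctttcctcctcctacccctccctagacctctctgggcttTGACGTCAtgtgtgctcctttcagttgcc
Dusp1 held 1 cAMP response element, from 143 to 136 bases before its start, and Dusp8 held 2, at 107 to 100 and 63 to 56 bases. In Mapk10 the element lay at 29 to 22 bases before the start. Dusp5 held 2 CArG boxes side by side, at 82 to 73 and 72 to 63 bases before its start. Among all 32851 promoter windows of this length, 1.55% held the cAMP response element, 1.47% a CArG box and 6.75% the AP-1 site, which occurred in none of the 11 entries. A match of letters is a description and no evidence of binding, and the windows of Dusp6, Dusp10, Dusp16, Mapk8 and Mapk9 held none of the 3 motifs.

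The labels of the libraries call for care before any value is read. The grouping behind the fold changes supplied with the study differs from that of the deposited labels. It is obtained by exchanging the libraries labelled MIRI 2 and GXNI 3. By rank correlation of log2 CPM, every one of the 6 libraries with tied arteries was nearest to a library of another label: MIRI 1 and MIRI 3 to GXNI 3, GXNI 3 to MIRI 3, MIRI 2 to GXNI 1, GXNI 2 to MIRI 1, and GXNI 1 to sham 1. Groups below follow the deposited labels, values under the exchanged labels or without these libraries stand beside them, and the 6 libraries with tied arteries are also compared with sham as 1 group (I/R), which does not depend on the exchange. Total counts were between 17119454 and 22811295, so that 3 counts equal 0.132 to 0.175 CPM (counts scaled to a common library size). The labels give cardiomyocytes as the cell type, but markers of endothelium, fibroblasts and macrophages were counted in every library, as in whole tissue. Summed over 8 genes, cardiomyocyte markers reached 43351 to 46649 CPM in sham hearts and 30664 to 48128 in the other 6.

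After ischemia and reperfusion, 3 of the 7 phosphatases were higher and no JNK kinase passed the test in either direction. Dusp5, a nuclear phosphatase of ERK, rose 6.09-fold in the 6 I/R hearts, Dusp8, which acts on JNK and p38, rose 2.80-fold, and Dusp16, a phosphatase of JNK and p38, rose 1.62-fold. Called means here, by the study's own thresholds, a difference of 1.5-fold or more whose unadjusted p did not exceed 0.01, with p from edgeR's quasi-likelihood test throughout except where DESeq2 is named. With 3 of 10 genes called higher and 0 lower, the shares over all 15207 genes tested were 5.52% higher and 2.85% lower. None of the 10 passed a Benjamini-Hochberg adjusted p of 0.05 over all genes in edgeR's quasi-likelihood test. In that test 9 genes passed and 4488 had an unadjusted p under 0.05. With DESeq2, 2171 of 29344 genes passed the same adjusted p, so the number passing depends on the tool. The DESeq2 adjusted p of the 10 genes are not given here. Dusp5, Dusp8 and Dusp16 were also the 3 genes of the group whose 6 I/R values all lay above the 3 sham values, which held for 7.96% of all genes tested. The median log2 fold change of the 10 genes was 0.78, against 0.01 over all genes tested. In bulk tissue, fewer cells of a type and less RNA per cell cannot be told apart.

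**Figure D1:**
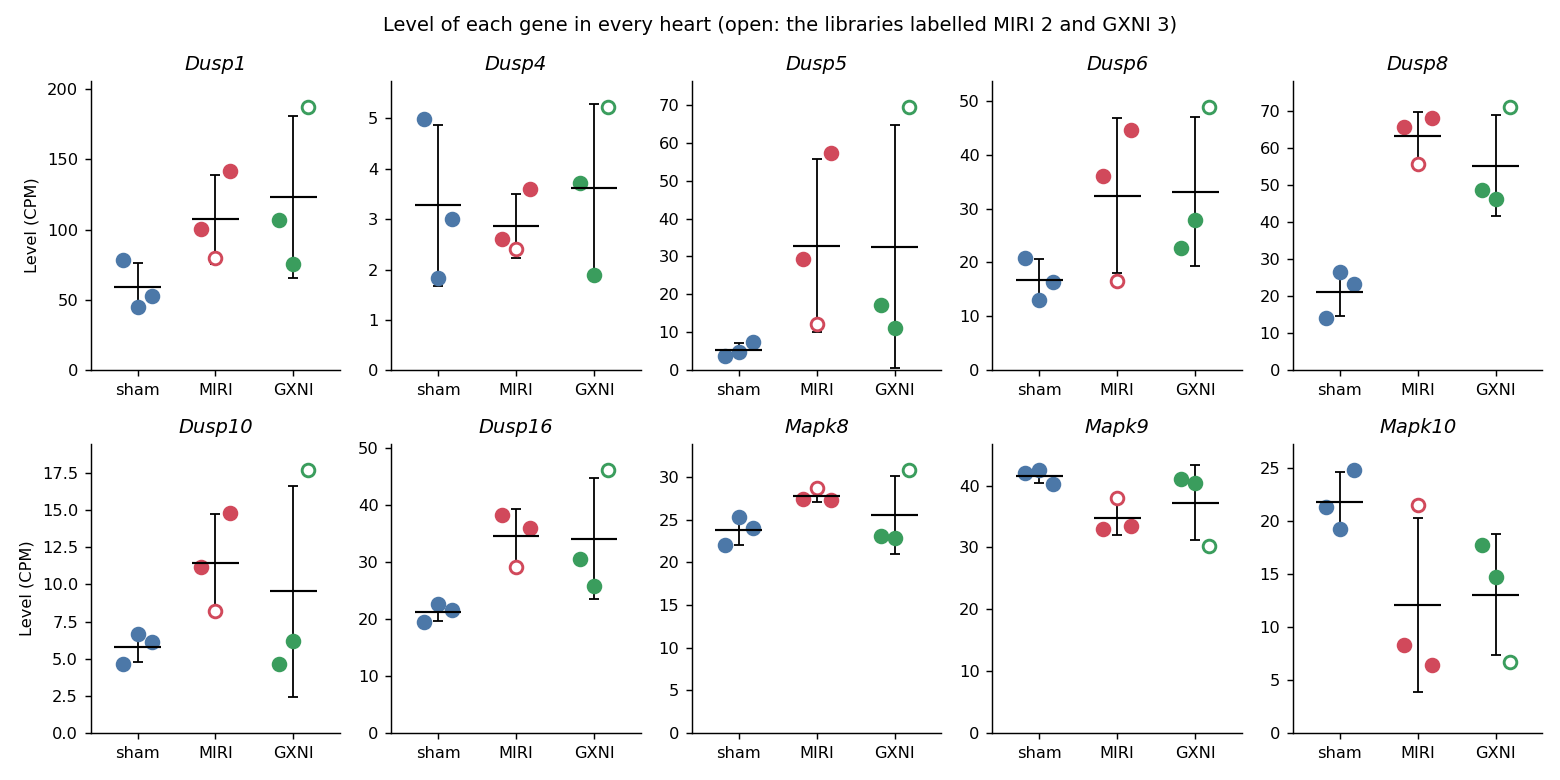
Level of each of the 10 genes in CPM (vertical axis, from 0) in the 3 hearts of each group, with the mean as a line and the SD as an error bar, and with open symbols for the libraries labelled MIRI 2 and GXNI 3. Dusp5, Dusp8 and Dusp16 lay above all sham hearts in every I/R heart, and the open symbol of the MIRI group lay nearest to sham for Dusp1, Dusp5, Dusp6, Dusp8, Dusp10, Dusp16, Mapk9 and Mapk10.

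Dusp5 (ENSMUSG00000034765, chromosome 19 of GRCm38, 53529109 to 53542431, forward strand) had the largest difference of the 10 genes. Its level was 3.87, 4.71 and 7.55 CPM in sham hearts 1 to 3. The libraries labelled MIRI 1 to 3 had 29.2, 12.1 and 57.2 CPM, and those labelled GXNI 1 to 3 had 17.2, 11.1 and 69.3 CPM. All 6 I/R hearts were above all sham hearts, MIRI 3 and GXNI 3 were far above the rest, and the hearts labelled MIRI and GXNI overlapped. In I/R against sham the log2 fold change was 2.61 (standard error 0.68, unadjusted p = 0.00349, adjusted p = 0.0875). Without sham 1 it was 2.42 and without sham 2 it was 2.51, and in these fits it was no longer called (unadjusted p = 0.0178 and 0.0165). An antisense gene of the annotation, AC137853.2, shares 547 exon bases with Dusp5 and was not analysed here, and the strand setting of the counting is not given in the sources used here, so reads from these bases may come from either gene.

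Dusp8 (ENSMUSG00000037887, chromosome 7, 142079490 to 142095843, reverse strand) gave the firmest difference of the 10. Sham hearts 1 to 3 had 14.0, 26.5 and 23.3 CPM. The libraries labelled MIRI 1 to 3 had 65.8, 55.9 and 68.2 CPM, and those labelled GXNI 1 to 3 had 48.7, 46.3 and 71.1 CPM. The lowest I/R heart thus lay well above the highest sham heart, GXNI 3 being the highest of all and GXNI 2 the lowest of the 6. The log2 fold change in I/R against sham was 1.48 (standard error 0.23, unadjusted p = 7.44e-05, adjusted p = 0.0546), and it was called with any 1 of the 9 libraries left out. Gm32786, on the opposite strand, shares 66 exon bases with Dusp8 but had at most 2 counts in a library.

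Dusp16 (ENSMUSG00000030203, chromosome 6, 134715468 to 134792625, reverse strand) moved less. It had 19.5, 22.6 and 21.5 CPM in sham hearts, 38.3, 29.2 and 36.0 CPM in MIRI-labelled hearts 1 to 3, and 30.5, 25.7 and 46.1 CPM in GXNI-labelled hearts 1 to 3. Every I/R heart exceeded every sham heart, the lowest being GXNI 2. Its log2 fold change in I/R against sham was 0.70 (standard error 0.18, unadjusted p = 0.00355, adjusted p = 0.0875). The call was lost without sham 1 (0.64, unadjusted p = 0.0184) and without sham 3 (0.71, unadjusted p = 0.0129).

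Dusp1 (ENSMUSG00000024190, chromosome 17, 26505590 to 26562128, reverse strand), an immediate-early phosphatase of p38, JNK and ERK, was just outside the threshold. Sham hearts had 78.5, 45 and 53.1 CPM, the libraries labelled MIRI 1 to 3 had 101, 79.7 and 142 CPM, and those labelled GXNI 1 to 3 had 107, 75.9 and 187 CPM. The groups sham and I/R overlapped through sham 1, which was higher than GXNI 2. The log2 fold change in I/R against sham was 0.97 (standard error 0.31, unadjusted p = 0.0109, adjusted p = 0.101). It was called without sham 1 (1.24, unadjusted p = 0.00711), without the library labelled MIRI 2 (1.06, unadjusted p = 0.00717), without GXNI 2 (1.07, unadjusted p = 0.00643) and with DESeq2 (0.98, unadjusted p = 0.00253). Ergic1, on the opposite strand, shares 11 exon bases with Dusp1.

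Dusp6 (ENSMUSG00000019960, chromosome 10, 99263231 to 99267489, forward strand), a cytoplasmic phosphatase of ERK, behaved like Dusp1 under the thresholds. Its levels were 20.7, 13.1 and 16.4 CPM in sham hearts, 36.1, 16.5 and 44.5 CPM in MIRI-labelled hearts 1 to 3, and 22.6, 28 and 48.8 CPM in GXNI-labelled hearts 1 to 3. The library labelled MIRI 2 lay among the sham hearts, and the other 5 I/R hearts lay above them. The log2 fold change in I/R against sham was 0.97 (standard error 0.33, unadjusted p = 0.0161, adjusted p = 0.111), and it was called without the library labelled MIRI 2 (1.1, unadjusted p = 0.00284) and with DESeq2 (0.98, unadjusted p = 0.00487). Over all genes tested, 9.67% were called higher and 4.76% lower once MIRI 2 was left out, and 3.77% and 2.11% without GXNI 3, where Dusp5, Dusp8 and Dusp16 were the called genes of the 10.

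Dusp10 (ENSMUSG00000039384, chromosome 1, 184013302 to 184075636, forward strand), which acts on JNK and p38, was uneven among the I/R hearts. Sham hearts had 4.67, 6.65 and 6.10 CPM, the libraries labelled MIRI 1 to 3 had 11.2, 8.23 and 14.8 CPM, and those labelled GXNI 1 to 3 had 4.67, 6.20 and 17.7 CPM. The library labelled GXNI 1 was level with the lowest sham heart, GXNI 2 lay within the sham range and GXNI 3 was the highest of all. The log2 fold change in I/R against sham was 0.85 (standard error 0.40, unadjusted p = 0.0612, adjusted p = 0.187). Dusp4 (ENSMUSG00000031530, chromosome 8, 34807297 to 34819894, forward strand), a nuclear phosphatase related to Dusp1, had few counts. It was between 1.84 and 5.0 CPM in sham hearts and between 1.88 and 5.22 CPM in I/R hearts, with a log2 fold change of -0.01 and a 95% confidence interval from -0.85 to 0.83.

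Levels can be ordered between genes only per length, and so CPM were divided by the kilobases of exon of each gene. On this scale Dusp1 was the highest phosphatase in each group, at 17.8 ± 5.27 (SD, n = 3) CPM per kilobase in sham, and Dusp4 the lowest, at 1.2 ± 0.583 (SD, n = 3). In sham hearts the order between them was Dusp6 at 5.35, Dusp8 at 4.37, Dusp16 at 2.72, Dusp5 at 2.17 and Dusp10 at 1.91 CPM per kilobase. From Dusp6 downwards, each gene overlapped its next neighbour in the ranges of the sham hearts, so that only Dusp1 was separated from the rest. Dusp5 moved from the fifth place in sham to the second in the groups labelled MIRI and GXNI, where its hearts spanned 4.90 to 23.1 and 4.49 to 28 CPM per kilobase. These ranges took in that of Dusp8, from 11.5 to 14.0 in MIRI and from 9.50 to 14.6 in GXNI, so the places of these neighbours in the I/R groups were not separated.

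None of the 3 JNK genes was called in I/R against sham. Mapk8 (JNK1; ENSMUSG00000021936, chromosome 14, 33377898 to 33447158, reverse strand) and Mapk9 (JNK2; ENSMUSG00000020366, chromosome 11, 49846751 to 49886421, forward strand) are expressed in most tissues. Mapk8 was between 22.0 and 25.3 CPM in sham and between 22.8 and 30.8 CPM in I/R hearts, with a log2 fold change of 0.17 in I/R against sham (95% confidence interval -0.11 to 0.45, unadjusted p = 0.207, adjusted p = 0.366). Mapk9 was between 40.2 and 42.5 CPM in sham and between 30.3 and 41.1 CPM in I/R hearts, with a log2 fold change of -0.20 (95% confidence interval -0.47 to 0.07, unadjusted p = 0.125, adjusted p = 0.273). For both genes the I/R range overlapped the sham range, and the intervals leave out a change of 1.5-fold in either direction.

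Mapk10 (JNK3; ENSMUSG00000046709, chromosome 5, 102907948 to 103211334, reverse strand) is known mainly from brain, heart and testis. Its level was 21.3, 19.3 and 24.8 CPM in sham hearts. The libraries labelled MIRI 1 to 3 had 8.32, 21.6 and 6.45 CPM, and those labelled GXNI 1 to 3 had 17.8, 14.7 and 6.67 CPM. The libraries labelled MIRI 1, MIRI 3 and GXNI 3 were lowest. GXNI 2 and GXNI 1 lay between them and the sham hearts, and MIRI 2 lay among the sham hearts. The log2 fold change in I/R against sham was -0.79 (standard error 0.38, unadjusted p = 0.0675, adjusted p = 0.196), which was not called. Gm42522 and Gm43789 lie within Mapk10 on its strand, share none of its exon bases and had at most 2 counts in a library. Neuronal and glial markers were between 11.3 and 20.1 CPM, summed over 8 genes, in all 9 hearts.

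**Figure D2:**
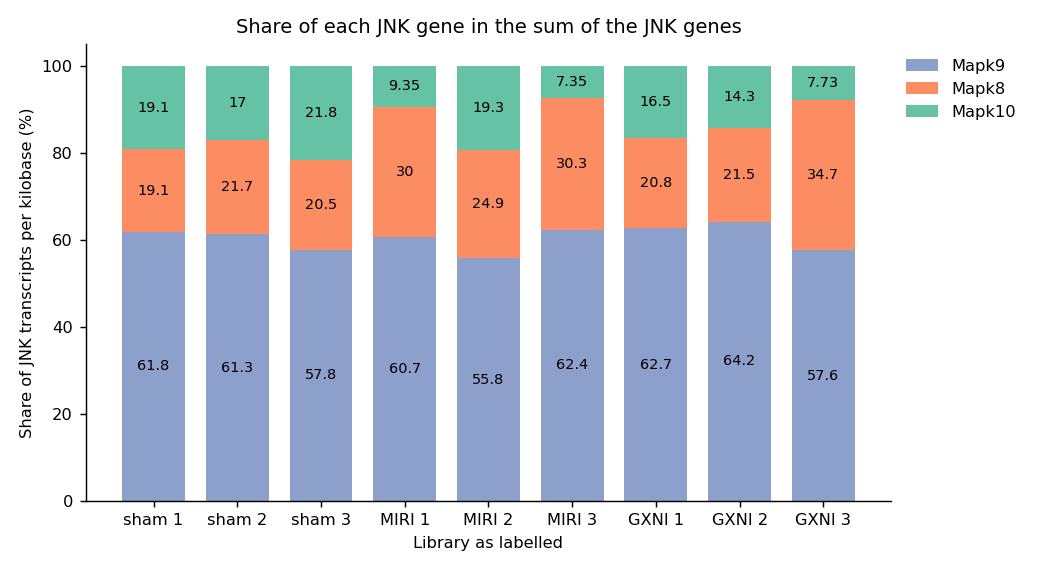
Share of Mapk9, Mapk8 and Mapk10 in the sum of the 3 JNK genes (vertical axis, percent of CPM per kilobase of exon) in each library as labelled. Mapk10 made up 17.0 to 21.8% in sham hearts and 7.35 to 9.35% in the libraries labelled MIRI 1, MIRI 3 and GXNI 3.

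Per kilobase of exon, Mapk9 held 60.3% ± 2.20 (SD, n = 3) of the JNK sum in sham hearts, Mapk8 20.4% ± 1.28 (SD, n = 3) and Mapk10 19.3% ± 2.40 (SD, n = 3). The share of Mapk10 was 9.35, 19.3 and 7.35% in MIRI-labelled hearts 1 to 3 and 16.5, 14.3 and 7.73% in GXNI-labelled hearts 1 to 3. The share of Mapk9 stayed between 55.8 and 64.2% in the 6 I/R hearts, so where the share of Mapk10 was small that of Mapk8 was large, up to 34.7% in the library labelled GXNI 3. The sum of the 3 genes was 10.2 ± 0.117 (SD, n = 3) CPM per kilobase in sham, 8.64 ± 1.22 (SD, n = 3) for the MIRI label and 8.90 ± 1.01 (SD, n = 3) for the GXNI label, and it was lowest in the library labelled GXNI 3, at 7.76. These shares and sums are descriptions without a test, and they use the whole annotated exon length, since no transcript was counted on its own.

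The injury alone was read from the libraries labelled MIRI against sham, in which 4 phosphatases were called higher. On the log2 scale these were Dusp5 with 2.62 (standard error 0.57, unadjusted p = 0.00237), Dusp8 with 1.58 (0.24, unadjusted p = 0.000329), Dusp16 with 0.71 (0.15, unadjusted p = 0.00204) and Dusp10 with 0.99 (0.26, unadjusted p = 0.00695). Over all 14644 genes tested 6.15% were called higher and 2.82% lower. The adjusted p of these 4 phosphatases in edgeR's quasi-likelihood test were between 0.0607 and 0.0939. Of all genes, 2 passed an adjusted p of 0.05 with edgeR and 2067 of 27901 with DESeq2. Dusp1 (0.88, unadjusted p = 0.0167), Dusp6 (0.96, unadjusted p = 0.0334) and Mapk10 (-0.84, unadjusted p = 0.0959) were not called. The groups did not overlap for 6 genes that were higher (Dusp1, Dusp5, Dusp8, Dusp10, Dusp16 and Mapk8) and for Mapk9, which was lower, against 16.7% and 17.0% of all genes tested.

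The library labelled MIRI 2 decided much of this comparison. Without it, 6 phosphatases were called higher, Dusp4 being the exception, and Mapk10 was called lower at -1.56 on the log2 scale (standard error 0.18, unadjusted p = 4.57e-05, adjusted p = 0.00076), a 2.94-fold lower level. In that fit Dusp1 was at 1.05 (edgeR adjusted p = 0.0126), Dusp5 at 3.01 (0.00069), Dusp6 at 1.27 (0.00229), Dusp8 at 1.66 (0.00156), Dusp10 at 1.17 (0.00383) and Dusp16 at 0.81 (0.00158). Over all genes, 16.9% were then called higher and 13.3% lower. Leaving out other libraries took calls away, and Dusp10 lost its call without any 1 of sham 1, sham 2, sham 3, MIRI 1 or MIRI 3 (log2 fold changes 0.76 to 1.08, unadjusted p from 0.0142 to 0.0300). Dusp5 lost it without sham 1 (2.43, unadjusted p = 0.0121) and sham 2 (2.52, unadjusted p = 0.0120), Dusp16 without sham 1 (0.65, unadjusted p = 0.0129) and sham 3 (0.72, unadjusted p = 0.0105), and Dusp1 was called without sham 1 (1.13, unadjusted p = 0.00693).

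The libraries labelled GXNI against sham, which share the sham hearts with the comparisons above, gave 2 called genes, Dusp5 at 2.61 on the log2 scale (standard error 0.72, unadjusted p = 0.00884, adjusted p = 0.219) and Dusp8 with 1.39 (0.28, unadjusted p = 0.00189, adjusted p = 0.219). Of all 14695 genes tested 2.67% were called higher and 1.54% lower. An adjusted p of 0.05 was passed by 0 genes with edgeR and by 833 of 27966 with DESeq2. Dusp1 was at 1.08 (unadjusted p = 0.0226), Dusp6 at 1.0 (unadjusted p = 0.0181), Dusp16 at 0.70 (unadjusted p = 0.0208) and Mapk10 at -0.73 (unadjusted p = 0.0714), none of them called. The groups did not overlap for Dusp5, Dusp6, Dusp8 and Dusp16, which were higher, and for Mapk10, which was lower, against 13.5% and 15.9% of all genes tested. Dusp10 was at 0.72 and turned to -0.09 without the library labelled GXNI 3. Without that library Dusp5 was at 1.41 (unadjusted p = 0.00433) and Dusp8 at 1.16 (unadjusted p = 0.00309), both still called, against 2.11% of all genes called higher and 1.46% lower. Dusp5 lost its call without sham 1 (2.42), sham 2 (2.52) or sham 3 (2.93), at unadjusted p from 0.0167 to 0.0345, while Dusp6 was called without GXNI 1 (1.21, unadjusted p = 0.00559) and Dusp1 (1.34, unadjusted p = 0.00853) and Dusp16 (0.87, unadjusted p = 0.00812) without GXNI 2.

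The question of the injection itself is put by GXNI against MIRI. Under the deposited labels none of the 10 genes was called, none had groups that did not overlap (1.29% of all genes tested did so as higher and 1.38% as lower), and every adjusted p was 1 in edgeR's quasi-likelihood test. Over all 14762 genes tested 0.00% were called higher and 0.0203% lower, 47 genes had an unadjusted p under 0.05, and 0 passed an adjusted p of 0.05 with edgeR or with DESeq2. The log2 fold changes of the 10 genes lay between -0.26 for Dusp10 and 0.34 for Dusp4. Their intervals were wide where hearts of one label disagreed, from -1.90 to 1.91 for Dusp5 and from -1.22 to 1.45 for Mapk10, and narrow for Dusp8 (-0.69 to 0.32), Mapk8 (-0.54 to 0.31) and Mapk9 (-0.33 to 0.54).

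With the libraries labelled MIRI 2 and GXNI 3 exchanged, the same comparison gave 4 called genes. Dusp5 was lower by a log2 fold change of -1.92 (standard error 0.32, unadjusted p = 0.000318, adjusted p = 0.0143), Dusp6 by -0.93 (0.20, unadjusted p = 0.00182, adjusted p = 0.0211) and Dusp10 by -1.18 (0.25, unadjusted p = 0.00162, adjusted p = 0.0204). Mapk10 was higher by 1.35 (0.20, unadjusted p = 0.000138, adjusted p = 0.0143). Under the exchange 8.56% of all genes were called higher and 10.7% lower. The groups then did not overlap for 5 genes that were lower, Dusp5, Dusp6, Dusp8, Dusp10 and Dusp16, and for Mapk9 and Mapk10, which were higher, against 23.7% and 22.6% of all genes tested. With both of these libraries left out, Dusp5 (-1.59, unadjusted p = 0.00568), Dusp10 (-1.24, unadjusted p = 0.0034) and Mapk10 (1.15, unadjusted p = 0.0035) were called, with 1.52% of all genes called higher and 3.47% lower and adjusted p between 0.188 and 0.189.

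**Figure D3:**
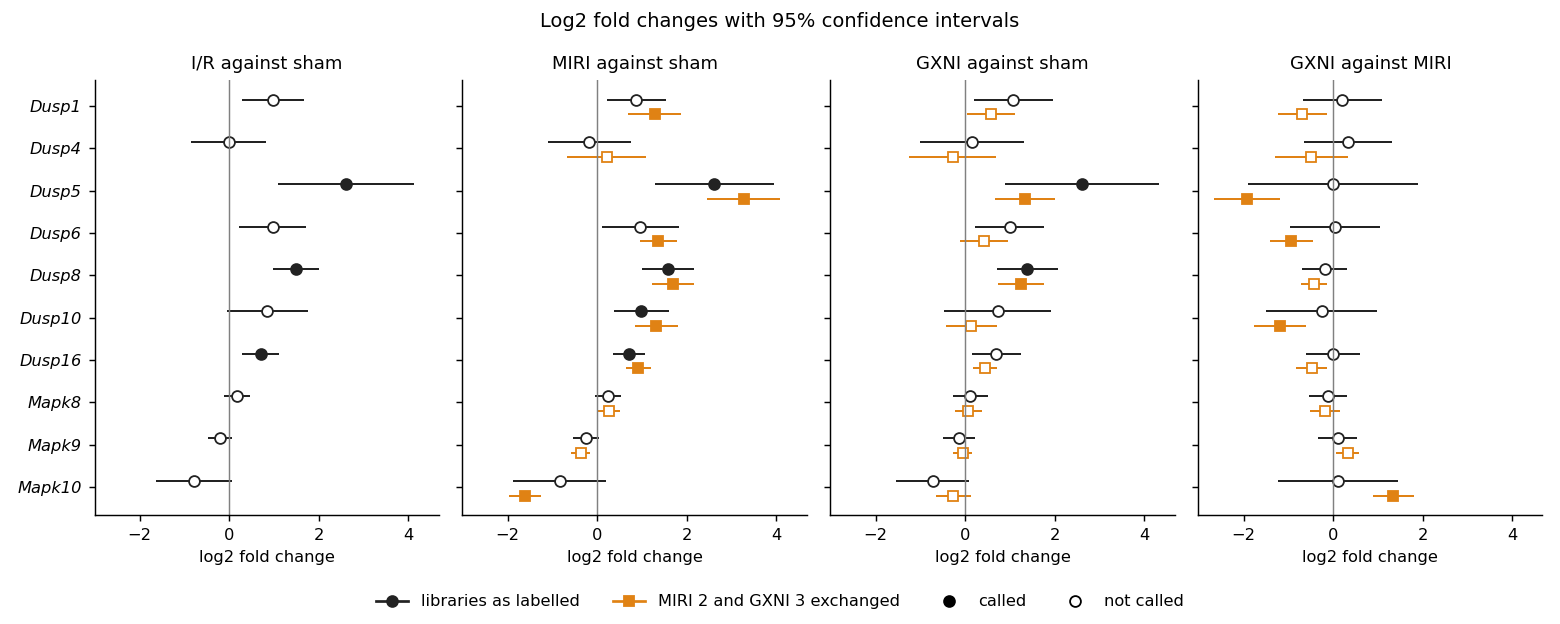
Log2 fold change (horizontal axis) of each of the 10 genes in 4 comparisons, with 95% confidence intervals, for the libraries as labelled (black circles) and with the libraries labelled MIRI 2 and GXNI 3 exchanged (orange squares); filled symbols are called. In GXNI against MIRI no black symbol is filled, whereas Dusp5, Dusp6, Dusp10 and Mapk10 are filled in orange, and I/R against sham has no orange symbols because the exchange leaves it as it is.

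The exchange also moved the comparisons with sham. For MIRI against sham, 6 phosphatases were then called higher and Mapk10 lower, with 19.2% of all genes called higher and 16.6% lower. Dusp5 was at a log2 fold change of 3.27 (standard error 0.36), Dusp8 at 1.69 (0.21), Dusp6 at 1.37 (0.18), Dusp10 at 1.32 (0.21), Dusp1 at 1.28 (0.26), Dusp16 at 0.92 (0.13) and Mapk10 at -1.61 (0.16), with edgeR adjusted p between 0.000104 and 0.00356. The groups did not overlap for the 6 phosphatases and Mapk8, which were higher, and for Mapk9 and Mapk10, which were lower, against 31.2% and 31.1% of all genes tested. For GXNI against sham only Dusp5 (1.34, unadjusted p = 0.00181) and Dusp8 (1.25, unadjusted p = 0.000622) of the 10 were called, with 2.16% of all genes called higher and 1.56% lower, and the groups did not overlap for Dusp5, Dusp8 and Dusp16 (10.5% of all genes as higher). Dusp8 and Dusp5 were thus called against sham in both groups under both sets of labels.

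**Figure D4:**
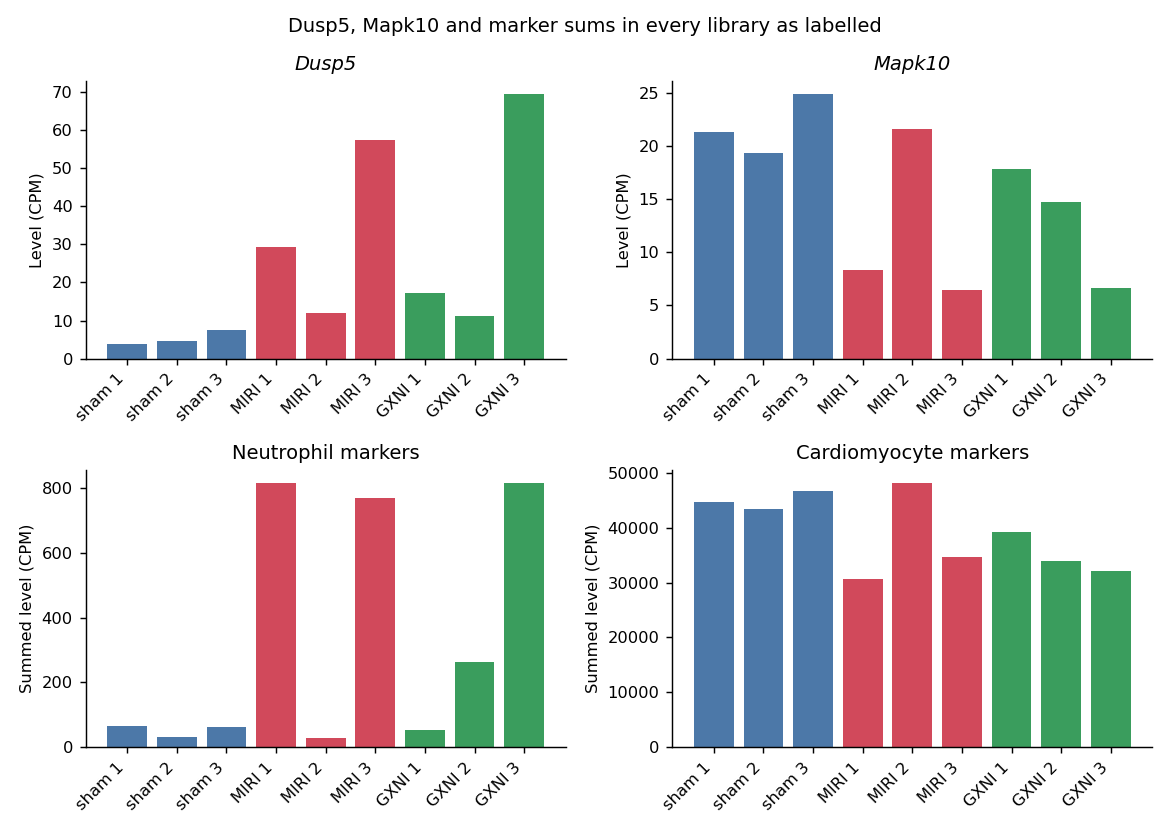
Level of Dusp5 and Mapk10 and summed level of 12 neutrophil and 8 cardiomyocyte markers, in CPM (vertical axes, from 0), in each library as labelled. The libraries labelled MIRI 1, MIRI 3 and GXNI 3 had the highest Dusp5, the lowest Mapk10 and the highest neutrophil markers.

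Some marker sums moved with these values and others did not, the fibroblast and mesothelial sums being highest in the library labelled GXNI 1. Neutrophil markers, summed over 12 genes, all but Ly6g above 3 counts in every library, were between 32.0 and 66.7 CPM in sham hearts. They reached 815, 30.1 and 768 CPM in MIRI-labelled hearts 1 to 3 and 54.6, 262 and 813 CPM in GXNI-labelled hearts 1 to 3, so the libraries high in them were those with low Mapk10 and the highest Dusp5. Of 11 neutrophil markers tested in I/R against sham, 2 were called higher, beside 5.52% of all genes tested. Without the library labelled MIRI 2 it was 9 (9.67% of all genes), and without GXNI 3 it was 0 (3.77%). The cardiomyocyte sum was 30664, 48128 and 34668 CPM in MIRI-labelled hearts and 39164, 33946 and 32161 CPM in GXNI-labelled hearts. In I/R against sham 0 of 8 cardiomyocyte markers were called, and without MIRI 2 there was 1 lower, beside 4.76% of all genes. In MIRI against sham 0 of 8 were called, but 4 of 8 were lower without the library labelled MIRI 2 (median log2 fold change -0.58), and 4 were lower and 1 higher under the exchange (median -0.56). In these 2 fits, in which Mapk10 was lower and 6 phosphatases were higher, all neutrophil markers tested were called higher, 12 of 12 and 11 of 11. Over all genes, these fits called 16.9% and 19.2% higher and 13.3% and 16.6% lower. Endothelial markers were between 572 and 815 CPM in sham and between 608 and 1048 CPM in I/R hearts, macrophage markers between 491 and 592 and between 365 and 641 CPM, and fibroblast markers between 970 and 1179 and between 582 and 1613 CPM. The 6 atrial markers ran from 42.1 to 86.2 CPM in sham and from 59.0 to 730 CPM in I/R hearts, highest in MIRI 3 and GXNI 3. Nearly all of this sum was Nppa, which stressed ventricle also expresses, at 672 and 727 CPM in these hearts. The other atrial markers were all highest in the library labelled MIRI 2. There Dkk3 was at 14.7 CPM, against at most 3.33 CPM in any other library, and Myl4 had 59 counts, Myl7 30 and Sln 23. Bmp10 had 1 count there and 0 elsewhere. Myl7 and Sln had 0 counts in MIRI 3 and GXNI 3. The 6 mesothelial markers ran from 10.6 to 25.1 and from 8.93 to 75.6 CPM, and the 6 adipocyte markers from 505 to 661 and from 420 to 463 CPM. Nearly all of the adipocyte sum was Fabp4, which endothelium also expresses, and Adipoq, which defines adipocytes, had at most 3 counts in a library. Other listed genes were highest in the library labelled MIRI 2, Plin1 with 28 counts, Cidec with 29 and Cfd with 62. In any other library they had at most 6, 5 and 20 counts. The part of these cells in the levels of the 10 genes was not tested.

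Across the 9 hearts the level of Mapk10 ran against those of the phosphatases, with Pearson's r of log2 CPM between -0.93 and -0.30 for the 7 pairs. Mapk9 did so too, from -0.95 with Dusp10 to -0.37 with Dusp4, and its r with Mapk10 was 0.90. Mapk8 ran with the phosphatases, from 0.11 with Dusp4 to 0.89 with Dusp10. These correlations are descriptions, since the hearts share their groups and their cell make-up. Of 15206 genes, those most like Dusp5 by r over the 9 libraries were Klf16 (0.991), Pgk1-rs7 (0.986) and Egr3 (0.986). Those most like Mapk10 were Tmem94 (0.995), Nudt7 (0.994) and Tbc1d16 (0.992).

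The list of other MAP kinase phosphatases held Dusp2, Dusp7, Dusp9 and Styxl1, of which 2 were tested. For Styxl1, a place in this list is no statement of phosphatase activity. Dusp7, a cytoplasmic phosphatase of ERK like Dusp6, went the other way from the genes above, with 65.3, 68.7 and 59.5 CPM in sham, 36.0, 39.5 and 35.3 CPM in MIRI-labelled hearts 1 to 3, and 22.2, 39.4 and 38.6 CPM in GXNI-labelled hearts 1 to 3. All 6 I/R hearts were below all sham hearts, as for 8.89% of all genes tested. Dusp7 fell by 0.87 on the log2 scale in I/R against sham (standard error 0.17, unadjusted p = 0.000446, adjusted p = 0.0707). Dusp2, an inducible phosphatase known from immune cells, had 16, 7 and 10 counts in sham, 53, 10 and 92 in MIRI-labelled hearts, and 13, 13 and 50 in GXNI-labelled hearts, with a log2 fold change of 1.69 (unadjusted p = 0.0464, adjusted p = 0.163). Dusp9, with at most 11 counts, and Styxl1, with at most 1, were under the filter.

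The 7 MAP kinase kinases, which phosphorylate the MAP kinases, were all tested in I/R against sham, with a median log2 fold change of 0.08. Of these 0 were called higher and 1 lower, beside 5.52% and 2.85% of all genes tested. The gene that fell was Map2k6, an activator of p38, with 92, 85 and 66 counts in sham, 15, 39 and 30 in MIRI-labelled hearts, and 33, 11 and 16 in GXNI-labelled hearts. Its log2 fold change was -1.77 (standard error 0.39, unadjusted p = 0.00119, adjusted p = 0.0852). The activators of JNK did not pass the thresholds, Map2k4 being at 0.56 (unadjusted p = 0.0102) and Map2k7 at -0.20 (unadjusted p = 0.0964). For Map2k4 the level was 46.2, 46.3 and 42.7 CPM in sham and between 44.3 and 80.9 CPM in I/R hearts, and it was called higher in MIRI against sham at 0.65 (unadjusted p = 0.00157). Map2k1 was at 0.81 (unadjusted p = 0.0471), Map2k2 at 0.08 (unadjusted p = 0.536), Map2k3 at 0.78 (unadjusted p = 0.0258) and Map2k5 at -0.25 (unadjusted p = 0.109) in I/R against sham.

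Further up, 17 of 18 kinases and scaffolds upstream of JNK were tested in I/R against sham, with a median log2 fold change of -0.05. Beside 5.52% higher and 2.85% lower over all genes tested, 0 of them were called higher and 1 lower. This was Map3k5 (ASK1), an activator of JNK and p38 under oxidative stress, which fell from 70.8, 58.1 and 57.3 CPM in sham hearts to between 26.9 and 45.7 CPM in the I/R hearts (log2 fold change -0.77, standard error 0.17, unadjusted p = 0.000955, adjusted p = 0.084). Among 9 tested of 10 ERK and p38 kinases, 1 was called higher, the atypical kinase Mapk4 at 1.16 (standard error 0.27, unadjusted p = 0.00163, adjusted p = 0.0852). Mapk3 and Mapk14 did not pass, with log2 fold changes of -0.03 (standard error 0.13) and 0.00 (0.15).

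Among genes known as feedback or target genes of ERK, 4 of 13 were called higher and 0 lower, beside 5.52% and 2.85% of all genes tested, with a median log2 fold change of 1.67. The largest were Lif at 4.72 (standard error 1.46, unadjusted p = 0.00907), a cytokine of the interleukin-6 family, Spred3 at 3.0 (0.81, unadjusted p = 0.004), an inhibitor of Ras signaling, and Egr1 at 3.0 (0.89, unadjusted p = 0.00746), an immediate-early transcription factor. Spred3 had 0.967, 0.794 and 1.39 CPM in sham hearts, 9.76, 1.64 and 14.7 CPM in MIRI-labelled hearts 1 to 3, and 1.99, 6.30 and 16.2 CPM in GXNI-labelled hearts 1 to 3. All I/R hearts were above all sham hearts, and the libraries labelled MIRI 2 and GXNI 1 were nearest to them. Without the library labelled MIRI 2 there were 6 of 13 calls higher, beside 9.67% of all genes, and without GXNI 3 there were 2, beside 3.77%.

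Among 16 effector kinases and JNK substrates 2 were called higher and 1 lower, beside 5.52% and 2.85% of all genes tested. Their median log2 fold change in I/R against sham was -0.05. Atf3, a stress-induced transcription factor, rose by 4.15 on the log2 scale (standard error 0.92, unadjusted p = 0.00114), from between 2.73 and 3.12 CPM in sham hearts to between 13.3 and 120 CPM in I/R hearts. Jund, a partner in AP-1, rose by 1.19 on that scale (0.18, unadjusted p = 6.7e-05), and Rps6ka2, a kinase activated by ERK, fell by 0.65 (0.18, unadjusted p = 0.00472). The adjusted p of these 3 genes were between 0.0546 and 0.0875. Jun, the substrate from which JNK has its name, was at 0.73 (unadjusted p = 0.0562). In GXNI against MIRI 0 genes of any of these lists were called under the deposited labels. With the exchange, 9 of the 13 ERK feedback genes, 4 of the 9 ERK and p38 kinases and 2 of the 7 MAP kinase kinases were called lower, as were Dusp2 at -2.28, 3 of 17 upstream JNK kinases and scaffolds and 2 of 16 effectors, 1 other effector being higher. Of all genes tested 10.7% were then called lower and 8.56% higher, and 7 of 11 neutrophil markers were lower (median -2.93), whose part in these counts was not tested.

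**Figure D5:**
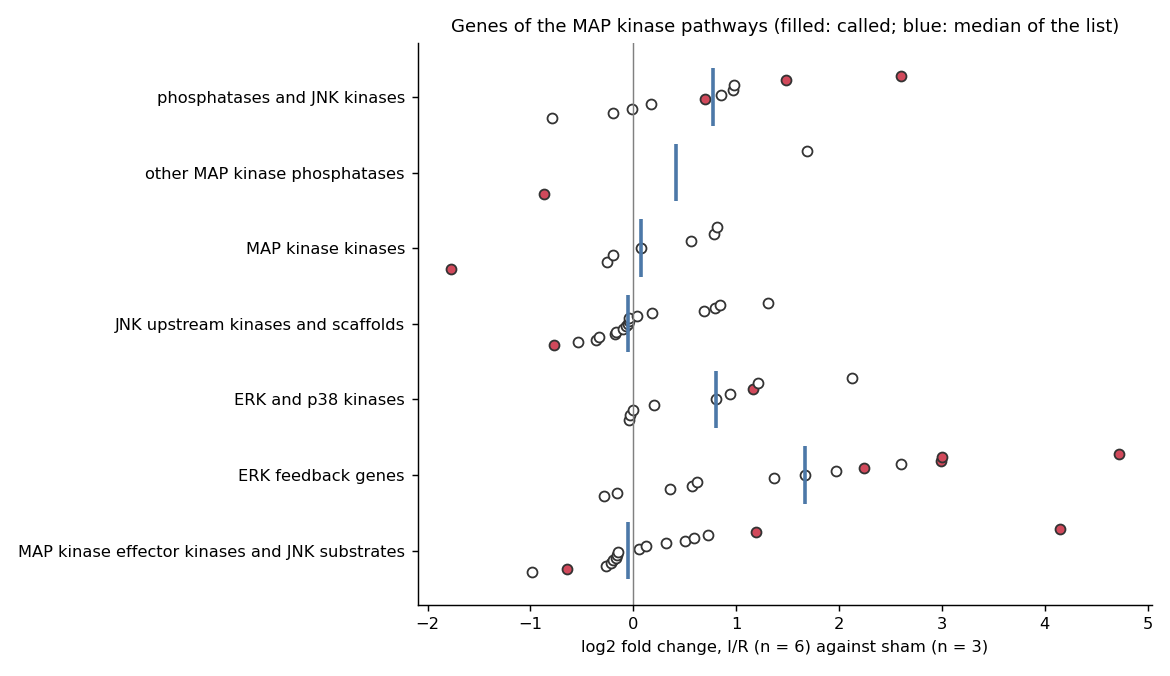
Log2 fold change in I/R (n = 6) against sham (n = 3) of each tested gene (horizontal axis) in 7 lists of MAP kinase pathway genes, with filled symbols for called genes and a blue line for the median of each list. The medians ran from -0.05 for the upstream JNK kinases and for the effectors to 1.67 for the ERK feedback genes, with 0.78 for the phosphatases and JNK kinases.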

How the data were processed

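RNA from 9 mouse hearts was sequenced. The authors cleaned the reads, mapped them with HISAT2 and assigned them to genes with featureCounts, on mm10 per the submitters' processing notes. The deposited values are whole counts of 54532 genes, without normalization. Tool versions, annotation and strand setting are not given in the sources used here. Symbols and exon lengths came from GENCODE M21 (GRCm38), which matched 54495 identifiers. No other sample entered (0 columns).

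The libraries of a comparison were fitted by themselves with edgeR 4.0.16 in R 4.3.3 (TMM factors, filterByExpr, quasi-likelihood test, no covariates). Adjusted p are Benjamini-Hochberg over all genes tested, and the standard error is the size of the log2 fold change divided by the square root of F. CPM use TMM factors of the 9 libraries. The floor of 3 counts covers counting error only. Tested on simulated counts for MIRI against sham with 200 genes changed by a log2 fold change of 2, edgeR recovered 199 among 14483 genes run. The simulation gave every gene the same dispersion. It therefore does not tell how often smaller changes, or changes among hearts that disagree, would be found. No pair of libraries of the same label agreed within sampling noise, and pairs across labels were not checked. DESeq2 1.42.0 and the other alternatives are given in the closing section.

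The 10 genes and all lists were chosen with earlier results of these data known. The other genes named are the tested members of the lists of other MAP kinase phosphatases and MAP kinase kinases, the up to 3 called genes per direction with the largest change in each further list, Mapk3 and Mapk14 always, the 3 genes most like Dusp5 and Mapk10, single markers, and genes overlapping a member. Jun, Dusp9 and Styxl1 fall outside this rule and were added after their values were seen. Fold changes supplied with the study served only to compare groupings of libraries.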

Additional observations from a re-analysis of the deposited data

How the results depend on the processing

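The order of the I/R and sham hearts for Dusp5, Dusp8 and Dusp16 rests on 3 sham hearts, and the comparison of GXNI with MIRI depends on which labels are used. RLE normalization and leaving out mitochondrial genes kept every count within 1.5 times its value and changed no call of the 10 genes. Counts are given as genes higher and lower. DESeq2 gave 1491 and 760 for MIRI against sham, 994 and 407 for GXNI against sham with 4 of the 10 genes higher, 1519 and 677 in I/R against sham with 5 of the 10 higher, and 4 and 7 in GXNI against MIRI with Dusp5 at -0.0044. Without a filter, MIRI against sham had 1603 and 803, and GXNI against sham had 999 and 426 with 4 of the 10 higher. I/R against sham had 656 lower, and 5 of the 10 were higher. The number of all genes higher in that fit is not given here. In it 5365 of 29344 genes had an unadjusted p under 0.05 in edgeR's quasi-likelihood test. GXNI against MIRI had 4 and 6. With an edgeR adjusted p of at most 0.05 the numbers were 2 and 0 for MIRI against sham, 0 and 0 for GXNI against sham, 4 and 5 in I/R against sham and 0 lower in GXNI against MIRI, with 0 of the 10 genes called in each. With all 9 libraries in 1 fit there were 535 and 265 in MIRI against sham with 2 of the 10 higher, 142 lower in GXNI against sham, and 1 and 8 in GXNI against MIRI with Dusp5 at -0.0115.

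With the libraries labelled MIRI 2 and GXNI 3 exchanged MIRI against sham had 2848 and 2462 genes, with 1 of the 10 genes lower and Dusp4 at 0.21, and 1264 and 1575 in GXNI against MIRI, with 1 of the 10 higher and 3 lower. Log2 fold changes that turned in GXNI against MIRI were -0.69 for Dusp1, -0.48 for Dusp4, -1.92 for Dusp5 and -0.93 for Dusp6, and Dusp4 was at -0.28 in GXNI against sham. With both libraries left out there were 2571 and 2021 in MIRI against sham, with 1 of the 10 lower, and 228 and 520 in GXNI against MIRI, with 1 of the 10 higher and 2 lower. Dusp1 was then at -0.39, Dusp4 at -0.13, Dusp5 at -1.59 and Dusp6 at -0.66 in GXNI against MIRI, and Dusp4 at -0.21, Dusp10 at -0.0906 and Mapk8 at -0.0463 in GXNI against sham. The cause was not tested.

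The main fits did not pair the samples by replicate number. The deviations of same-numbered libraries from their group means correlated above 0.1 in 5 of 9 pairs (range -0.445 to 0.701). Libraries of unlike number reached 0.73 (MIRI 2 with GXNI 1) and -0.77 (MIRI 2 with GXNI 3). This check therefore cannot settle whether the numbers pair the samples. With the number as a replicate block, 5 of the 10 genes were higher in I/R against sham, Dusp1 and Dusp6 being added and Dusp4 at 0.0108. Of all 15207 genes in this fit, 4923 had an unadjusted p under 0.05 in edgeR's quasi-likelihood test, against 4488 in the main fit. The share of all genes called with the block is not given here. Dusp10 was at 0.96 and not called in MIRI against sham with the block. In GXNI against MIRI the block gave 2 genes higher and 1 lower, with Dusp5 at -0.19.

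Leaving out 1 library at a time gave 254 to 1466 genes higher and 209 to 858 lower in I/R against sham, with 2 to 5 of the 10 higher and Dusp4 from -0.30 to 0.43. In MIRI against sham it gave 340 to 2571 and 174 to 2021, with 2 to 6 of the 10 higher, 0 to 1 lower and Dusp4 from -0.47 to 0.25. In GXNI against sham it gave 83 to 1603 and 90 to 1062, with 1 to 4 of the 10 higher, Dusp4 from -0.21 to 0.59, Dusp10 from -0.0906 to 1.05 and Mapk8 from -0.0463 to 0.20. In GXNI against MIRI it gave 0 to 8 and 0 to 9, with Dusp1 from -0.23 to 0.46, Dusp4 from -0.0275 to 0.65, Dusp5 from -1.20 to 0.64, Dusp6 from -0.35 to 0.32, Dusp10 from -1.07 to 0.0636, Dusp16 from -0.29 to 0.16 and Mapk10 from -0.21 to 0.84.

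By the length of the longest transcript, Mapk8 held 25.7% of the JNK sum in sham and 35.0% in MIRI, and Mapk9 held 55.4% in sham, 53.5% in MIRI and 55.8% in GXNI, while Dusp6 came to rank 3 and Dusp8 to rank 4 in GXNI.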
